A study of Homo sapiens with 8 samples.

Results

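The genes of the epidermal growth factor (EGF) receptor family and of its ligands were followed in HaCaT, an established human keratinocyte line that grows without limit. The members were 10 genes out of 24252 in each table. They were the receptors EGFR, ERBB2 and ERBB3, the ligands AREG, EREG, HBEGF, TGFA, EPGN and BTC, and ADAM17, the protease that releases several of these ligands. Members were chosen by gene symbol. A repeated symbol would have been settled by its highest mean over all 8 libraries, but each of the 10 symbols had 1 row. The rule used no other value, but the family was put forward with its levels and differences in these libraries already known, so the levels and calls of its members are a description and support nothing by themselves. The 4 Control libraries came from HaCaT cells whose labels name no treatment. The 4 OGD-R libraries came from HaCaT cells put through loss of oxygen and glucose and then their return, and the design text places them at an early stage. No label states how long either phase lasted. The series title names a search for hub genes of complex regional pain syndrome. All libraries came from 1 cell line, and the labels do not say whether the 4 of a group were grown separately, so the p-values cover the spread among the libraries alone, and that spread may be technical. In such bulk libraries, fewer cells of a kind and less RNA per cell cannot be told apart.

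EGF receptor ligands are made as precursors anchored in the cell membrane. Metalloproteases such as ADAM17 cut them at the cell surface, and the released ligand binds EGFR on the same or a neighbouring cell. Occupied EGFR pairs with another EGFR molecule or with ERBB2, which has no known ligand of its own, and signals through the RAS and ERK kinase cascade and through phosphoinositide 3-kinase. ERBB3 has little kinase activity itself and signals as a partner of ERBB2, above all in response to neuregulins. Keratinocytes make several of these ligands and respond to them, and the pathway is known for its part in their growth, migration and wound closure.

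Of the ligands, EPGN, EREG, AREG and BTC lie side by side on chromosome 4, and the sequences just before the first 3 are shown here with that of HBEGF because these ligands differed in how their RNA moved. By the GENCODE 29 annotation of GRCh38, the stretch from the start of EPGN to the end of BTC spanned 486 kb and held 4 protein-coding genes, all of them members. EPGN (ENSG00000182585) ran from 74308473 to 74315307, EREG (ENSG00000124882) from 74365143 to 74388751 and AREG (ENSG00000109321) from 74445134 to 74455009, all on the plus strand. BTC (ENSG00000174808) ran from 74744759 to 74794686 on the minus strand. HBEGF (ENSG00000113070) lies on chromosome 5, 140332843 to 140346631, minus strand. Promoter windows were found for 9 of the 10 members in the RefSeq table (GRCh38.p14), and ERBB3 had none there. The 250 bases before the start were searched on both strands for TGANTCA, the AP-1 motif, TGACGTCA, the cyclic AMP response element (CRE), and TATAAA, the TATA box. Capitals mark the matches:
EPGN, chr4:74308220-74308469, plus strand: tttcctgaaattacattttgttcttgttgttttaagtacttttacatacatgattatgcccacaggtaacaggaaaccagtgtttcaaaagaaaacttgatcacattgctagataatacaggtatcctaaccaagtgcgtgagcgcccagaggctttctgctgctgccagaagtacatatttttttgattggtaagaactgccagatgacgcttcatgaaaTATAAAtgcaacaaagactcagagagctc
EREG, chr4:74364895-74365144, plus strand: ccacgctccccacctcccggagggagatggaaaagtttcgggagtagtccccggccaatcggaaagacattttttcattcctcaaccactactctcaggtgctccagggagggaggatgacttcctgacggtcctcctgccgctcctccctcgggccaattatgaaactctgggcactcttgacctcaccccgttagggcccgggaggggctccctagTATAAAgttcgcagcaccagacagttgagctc
AREG, chr4:74444886-74445135, plus strand: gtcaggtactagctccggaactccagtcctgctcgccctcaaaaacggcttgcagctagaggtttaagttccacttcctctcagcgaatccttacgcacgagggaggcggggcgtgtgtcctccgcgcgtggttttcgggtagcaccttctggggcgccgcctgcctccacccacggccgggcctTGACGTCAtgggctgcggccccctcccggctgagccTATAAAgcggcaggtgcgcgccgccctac
HBEGF, chr5:140346604-140346853, minus strand: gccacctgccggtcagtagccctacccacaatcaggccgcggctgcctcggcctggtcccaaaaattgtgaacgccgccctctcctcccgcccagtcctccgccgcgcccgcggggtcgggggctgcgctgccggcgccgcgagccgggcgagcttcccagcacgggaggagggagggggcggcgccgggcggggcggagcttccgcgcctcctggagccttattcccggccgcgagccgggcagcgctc

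The AREG window held a CRE whose first base lay 65 bases before the start and a TATA box 29 bases before it. EREG and EPGN each had a TATA box, at 32 and 29 bases, and neither of the other motifs. HBEGF, TGFA, BTC and ADAM17 had none of the 3 motifs in their windows. ERBB2 had 1 match to the AP-1 motif, at 222 bases, and of 2 EGFR windows the first had no match, while the second, which lies within the gene, held 2 AP-1 motifs and 2 TATA boxes. Among all 35116 windows of this length, 1.65% held TGACGTCA, 10.7% held TATAAA and 6.57% held TGANTCA. A match is only a match of letters, and the windows say nothing about binding in these cells.

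The values were read as FPKM, fragments per kilobase of transcript scaled to the fragments of the library, which corrects for gene length, so levels can be set side by side between genes. Differences were tested with limma on log2(FPKM + 1) across the 11740 genes whose mean over the libraries reached 1 FPKM, and a gene was called at a Benjamini-Hochberg adjusted p under 0.05. Fold changes on this scale understate the change of low genes. Of the 10 members, 9 passed this filter, and BTC did not. EREG passed only through the Control libraries, since all its OGD-R values were under 1 FPKM, so it had to differ and its call supports nothing. The summed FPKM of a library lay between 428984 and 475385. In OGD-R, between 26.6% and 29.1% of the sum came from mitochondrially encoded genes, against 17.5% to 21.9% in Control. On a scaling without those genes the median log2 difference of all genes moved by 0.13, and the calls among all genes went from 1202 higher and 1138 lower (51.4% higher) to 1969 and 721 (73.2% higher). With upper quartile scaling they were 1697 and 907 (65.2% higher). Each tested member kept its direction and its call or lack of one on both scalings. The Controls fell in 2 places: across the tested genes, Controls 1 and 2 correlated with Controls 3 and 4 between 0.874 and 0.881 on the log scale, and with OGD-R between 0.940 and 0.947. Controls 3 and 4 also had little RNA of proliferation genes. The summed FPKM of 8 cell cycle genes was 747, 781, 96.3 and 81.1 in Controls 1 to 4 and between 589 and 662 in OGD-R. All Control values are therefore given, with the fit that keeps only Controls 1 and 2 and the fit that keeps only Controls 3 and 4. Their p-values rest on pairs of libraries that lie close together.

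The 10 keratinocyte markers examined were all present, led by KRT14 at 3556 to 5526 FPKM and KRT5 at 1984 to 5130 FPKM over the 8 libraries. Of 6 fibroblast, 6 immune, 6 melanocyte and 5 endothelial markers, 20 stayed under 1 FPKM in every library, COL1A2 and TYR among those at 0. The exceptions were COL1A1, CD68 and MITF. COL1A1 was listed at 0.860, 1.09, 8.69 and 7.91 FPKM across Controls 1 to 4 and 3.45 to 4.20 FPKM in OGD-R, split among the Controls as AREG and HBEGF were. CD68 ranged from 12.3 to 16.7 FPKM in Control and 2.94 to 3.74 FPKM in OGD-R, and MITF from 0.830 to 1.17 FPKM and 1.64 to 2.04 FPKM. Summed over each list, the fibroblast markers gave 0.870 to 8.72 FPKM in Control and 3.82 to 4.99 FPKM in OGD-R, and the immune markers 12.4 to 16.7 FPKM and 3.09 to 3.83 FPKM. The melanocyte markers gave 1.21 to 1.596 FPKM and 2.29 to 2.62 FPKM, and the endothelial markers 0.0474 to 0.199 FPKM and 0.297 to 0.463 FPKM. The part of other cell types, or of mitochondrial RNA, in the results on the members was not tested.

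In OGD-R, RNA of the ligands AREG, EREG and TGFA was lower and that of the receptors ERBB2 and ERBB3 higher than in Control. EGFR, ADAM17, HBEGF and EPGN did not pass the test with all Controls. Of the 9 members tested, 2 were called higher and 3 lower, where 10.2% of all genes tested were called higher and 9.69% lower. The 3 lower calls include EREG, which passed the filter only through the Control libraries. With Controls 1 and 2 alone, 2 members were called higher and 4 lower, against 22.8% and 32.4% of all genes. With Controls 3 and 4 alone, 3 were called higher and 6 lower, against 39.2% and 28.4%. Counting the libraries themselves, every OGD-R value lay below every Control value for AREG, EREG, HBEGF and TGFA (14.8% of all genes tested) and above it for ERBB2 and ERBB3 (15.2% of all genes). The median log2 fold change of the 9 members was -0.38, beside 0.02 over all genes tested. Since the members were chosen with results in view, nothing is read from these counts.

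**Figure D1:**
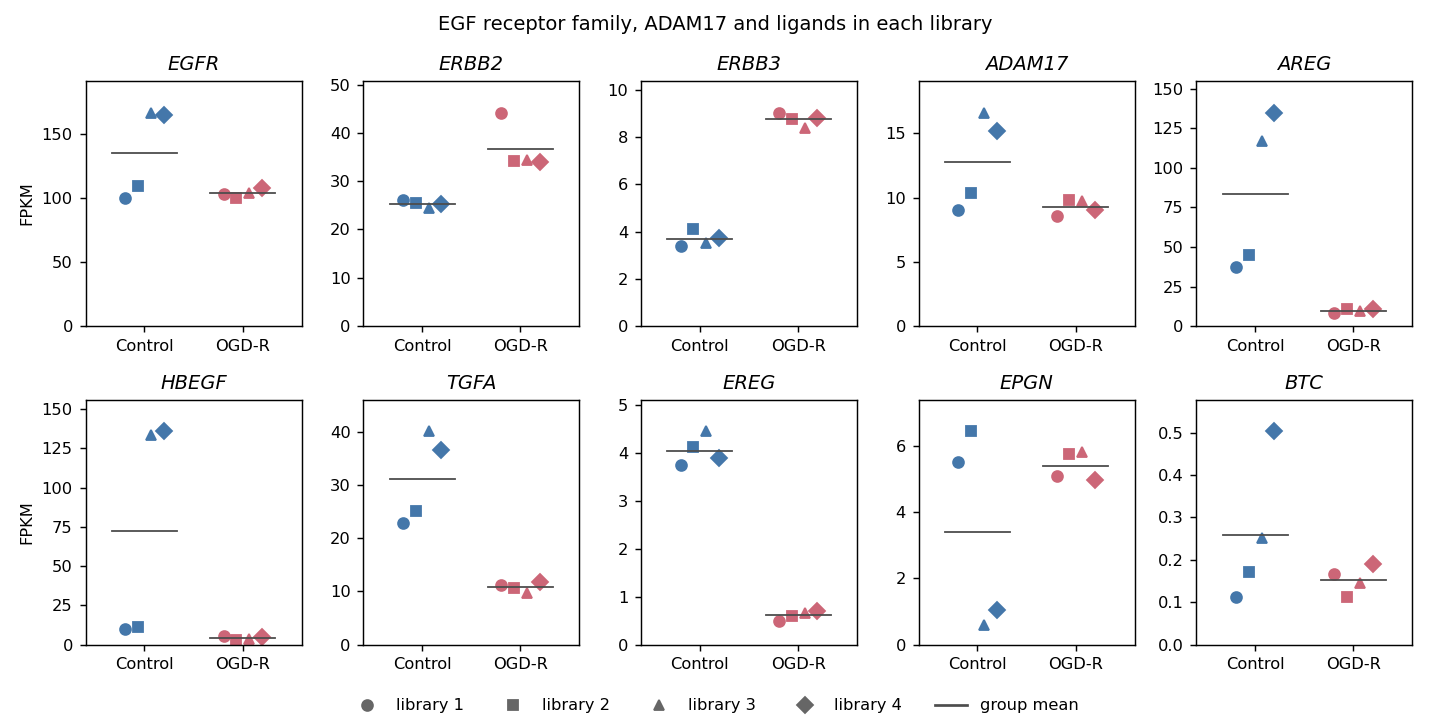
FPKM of each of the 10 members (vertical axis from 0, a different range in each panel) in 4 Control (blue) and 4 OGD-R (red) libraries, with marker shapes for the library number and a line for the group mean. On these axes the OGD-R libraries lie close together except for ERBB2 in OGD-R 1. For their low levels, HBEGF (3.14 to 5.24 FPKM) and BTC (0.111 to 0.190 FPKM) also spread widely in OGD-R. Controls 3 and 4 lie apart from Controls 1 and 2 in EGFR, ADAM17, AREG, HBEGF, TGFA and EPGN.

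EGFR, the receptor that binds all 6 ligands examined, was the most abundant member in both groups. Its level was 100.2, 109.5, 166 and 165 FPKM across Controls 1 to 4 and 103, 99.9, 104 and 108 FPKM across OGD-R 1 to 4. The OGD-R values lay close to those of Controls 1 and 2 and below those of Controls 3 and 4, and the groups overlapped. The log2 difference was -0.35 ± 0.18 (SE; limma adjusted p = 0.211). It was -0.02 against Controls 1 and 2 (limma adjusted p = 0.835) and -0.67 against Controls 3 and 4 (limma adjusted p = 9.63e-06), so the call appeared only with the latter pair. EGFR (ENSG00000146648) lies on chromosome 7, 55019021 to 55211628, plus strand.

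ERBB2, the partner receptor without a ligand (ENSG00000141736, chromosome 17, 39687914 to 39730426, plus strand), measured 26.2, 25.4, 24.4 and 25.2 FPKM across Controls 1 to 4. Its levels were 44.1, 34.2, 34.3 and 33.98 FPKM across OGD-R 1 to 4. The Controls did not split for this gene, and all OGD-R values were higher, with OGD-R 1 above the rest. Means were 25.3 ± 0.712 FPKM in Control and 36.7 ± 4.97 FPKM in OGD-R (SD, n = 4 each). On the log2 scale the difference was 0.51 ± 0.10 (SE; limma adjusted p = 0.0121). Without OGD-R 1 it was 0.42 (limma adjusted p = 0.0218). The call was lost with libraries weighted by group (limma adjusted p = 0.0992).

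ERBB3, the receptor that signals through ERBB2 (ENSG00000065361, chromosome 12, 56076799 to 56103505, plus strand), differed by nearly the same amount whichever Controls were kept. Its levels were 3.39, 4.10, 3.52 and 3.74 FPKM across Controls 1 to 4 and 9.02, 8.79, 8.40 and 8.79 FPKM across OGD-R 1 to 4. The groups were well apart, with means of 3.68 ± 0.311 FPKM in Control and 8.75 ± 0.259 FPKM in OGD-R (SD, n = 4 each), the latter 2.38 times the former. This gave a log2 difference of 1.06 ± 0.08 (SE; limma adjusted p = 0.000142), and it stayed between 1.03 and 1.25 over the alternatives run. Of the summed FPKM of the 3 receptors, ERBB3 made up 1.81% to 2.95% in Control and 5.74% to 6.15% in OGD-R. EGFR made up 77.2% to 85.6% in Control and 65.96% to 71.6% in OGD-R. The balance of receptor RNA therefore differed between the groups in every library, while the sum itself overlapped, at 130 to 194 FPKM in Control and 143 to 156 FPKM in OGD-R.

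**Figure D2:**
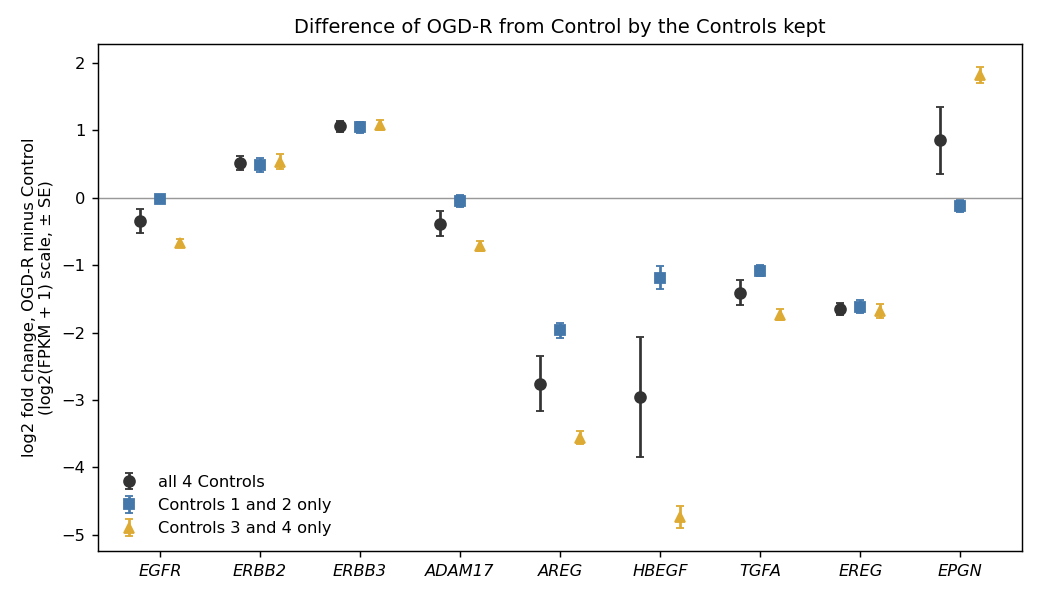
Log2 fold change of OGD-R from Control on the log2(FPKM + 1) scale (vertical axis, bars ± SE) for the 9 tested members, with all 4 Controls (black circles), only Controls 1 and 2 (blue squares) and only Controls 3 and 4 (yellow triangles). EREG, ERBB2 and ERBB3 hardly depend on the Controls kept, whereas HBEGF runs from -1.18 to -4.74 and EPGN from -0.12 to 1.82. EREG passed the filter only through the Control libraries, so its difference supports nothing.

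AREG, amphiregulin, had the highest mean of the ligands over the 8 libraries. Its levels were 37.4, 44.9, 117 and 135 FPKM across Controls 1 to 4 and 8.54, 10.7, 9.24 and 10.7 FPKM across OGD-R 1 to 4. Every OGD-R library was below every Control, and Controls 3 and 4 were above Controls 1 and 2. Means were 83.5 ± 49.6 FPKM in Control and 9.79 ± 1.08 FPKM in OGD-R (SD, n = 4 each). The log2 difference was -2.76 ± 0.41 (SE; limma adjusted p = 0.00297), and the mean of Controls 1 and 2 was 4.20 times, that of Controls 3 and 4 12.9 times, the OGD-R mean. AREG kept its call in all 19 alternatives.

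HBEGF, heparin-binding EGF-like growth factor, carried the widest spread between Controls. Its levels were 9.79, 11.4, 133 and 136 FPKM across Controls 1 to 4 and 5.24, 3.14, 3.40 and 4.89 FPKM across OGD-R 1 to 4. All OGD-R values were lower than all Control values, but the mean of Controls 3 and 4 was 32.3 times and that of Controls 1 and 2 only 2.54 times the OGD-R mean. With all Controls the log2 fold change was -2.96 ± 0.89 (SE), which missed the threshold (limma adjusted p = 0.0507). It was -1.18 against Controls 1 and 2 (limma adjusted p = 0.000348) and -4.74 against Controls 3 and 4 (limma adjusted p = 1.69e-08). HBEGF also passed without Control 1 alone (limma adjusted p = 0.0229) or Control 2 alone (limma adjusted p = 0.0282). It missed without Control 3 alone (limma adjusted p = 0.104) or Control 4 alone (limma adjusted p = 0.0935). With all Controls it passed at pseudocounts of 0.1 and 0.01 (limma adjusted p = 0.0453 and 0.0448). HBEGF was called against each pair of Controls by itself, with SE of 0.17 and 0.16. Those fits leave out the spread between the pairs, so their calls add no support. With all Controls its call depended on the processing. Its direction was the same throughout.

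TGFA, transforming growth factor alpha (ENSG00000163235, chromosome 2, 70447280 to 70554193, minus strand), measured 22.9, 25.2, 40.2 and 36.7 FPKM across Controls 1 to 4. Its levels were 11.2, 10.7, 9.77 and 11.7 FPKM across OGD-R 1 to 4. The OGD-R libraries were again all below the Controls, of which 3 and 4 were the higher ones. Means were 31.3 ± 8.48 FPKM in Control and 10.9 ± 0.837 FPKM in OGD-R (SD, n = 4 each). On the log2 scale the difference was -1.41 ± 0.18 (SE; limma adjusted p = 0.00163), with -1.08 against Controls 1 and 2 and -1.74 against Controls 3 and 4.

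EREG, epiregulin, was low but differed from Control by nearly the same amount whichever Controls were kept. Its levels were 3.74, 4.12, 4.45 and 3.89 FPKM across Controls 1 to 4 and 0.492, 0.5996, 0.648 and 0.690 FPKM across OGD-R 1 to 4. The Controls did not split, and their mean of 4.05 ± 0.308 FPKM was 6.66 times the OGD-R mean of 0.608 ± 0.0851 FPKM (SD, n = 4 each). This gave a log2 difference of -1.65 ± 0.09 (SE; limma adjusted p = 4.90e-05), and with a pseudocount of 0.01 in place of 1 it was -2.72. EREG passed the filter only through the Control libraries, so its call supports nothing. From the spacing of the lowest values in the tables, about 55.0 to 79.8 fragments lay behind each OGD-R value. This estimate depends on the transcript length the authors used and on how many steps of the spacing make 1 fragment.

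EPGN, epigen, went against AREG, HBEGF and TGFA within Control. Its levels were 5.49, 6.43, 0.598 and 1.04 FPKM across Controls 1 to 4 and 5.08, 5.75, 5.80 and 4.95 FPKM across OGD-R 1 to 4. Controls 3 and 4, the libraries with the most AREG, HBEGF and TGFA, had the least EPGN, as they had the least RNA of the cell cycle genes, and whether these are linked was not tested. OGD-R values lay around those of Controls 1 and 2. The log2 difference was 0.85 ± 0.49 (SE; limma adjusted p = 0.260), -0.12 against Controls 1 and 2 (limma adjusted p = 0.306) and 1.82 against Controls 3 and 4 (limma adjusted p = 9.11e-07). EPGN and AREG, which lie within the same 146.5 kb, thus differed in opposite directions between the pairs of Controls.

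BTC, betacellulin, was near the floor of the data. Its levels were 0.112, 0.172, 0.252 and 0.503 FPKM across Controls 1 to 4 and between 0.111 and 0.190 FPKM in OGD-R, and the groups overlapped. By the same estimate as for EREG, these values correspond to about 6.96 to 24.0 fragments per library. In the fit without a filter BTC was not called (limma adjusted p = 0.446), on a scale that understates the change of values this low.

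Summed over the 6 ligands, the level was 79.5, 92.2, 296 and 313 FPKM across Controls 1 to 4 and 30.7, 31.0, 29.01 and 33.1 FPKM across OGD-R 1 to 4. The sum was lower in every OGD-R library, and the mean of Controls 1 and 2 was 2.77 times and that of Controls 3 and 4 9.83 times the OGD-R mean. Set against EGFR in the same library, which cancels any scaling of the whole library, the ligand sum was 0.793, 0.843, 1.78 and 1.89 in Controls 1 to 4 and 0.280 to 0.310 in OGD-R. The makeup of the sum also differed. HBEGF held 12.3%, 12.3%, 45.1% and 43.4% of it in Controls 1 to 4 and 10.1% to 17.1% in OGD-R, so Controls 1 and 2 lay within the OGD-R range there. TGFA held 11.7% to 28.8% in Control and 33.7% to 36.5% in OGD-R, and EPGN 0.202% to 6.97% against 14.96% to 20%. AREG held 39.5% to 48.7% in Control and 27.8% to 34.6% in OGD-R. TGFA and EPGN thus took a larger share and AREG a smaller one in all OGD-R libraries. No test was made on these sums, because their members were chosen with results known.

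**Figure D3:**
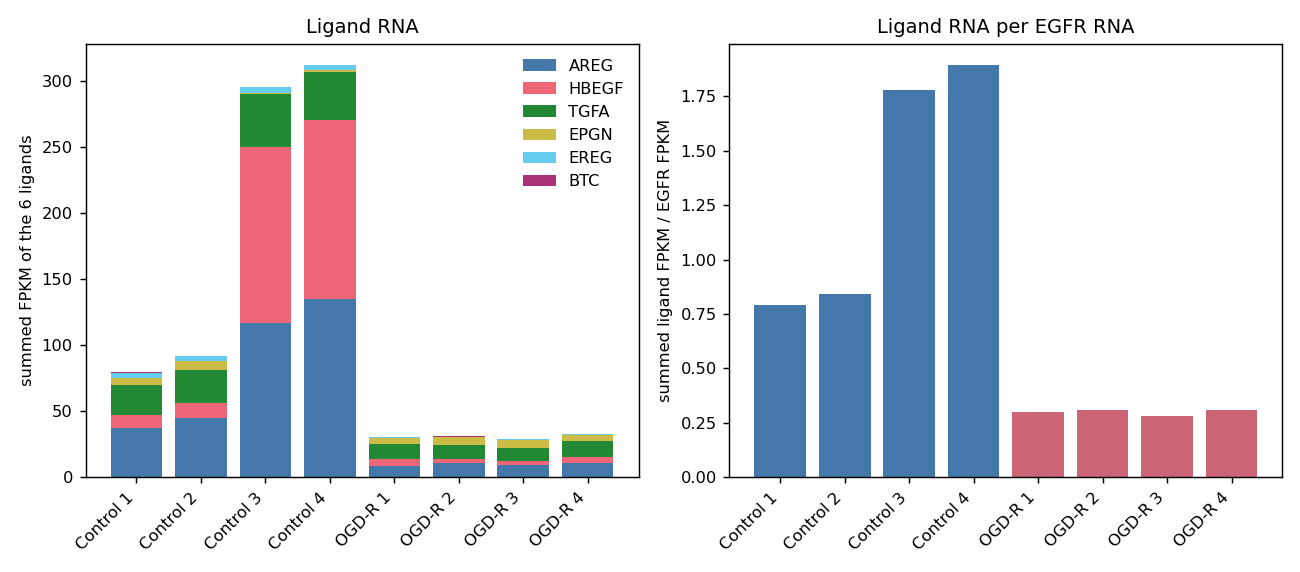
Left, stacked bars of the FPKM of the 6 ligands in each library, and right, their sum divided by the FPKM of EGFR in the same library (both axes from 0). OGD-R libraries reach 29.01 to 33.1 FPKM, Controls 1 and 2 reach 79.5 and 92.2, and Controls 3 and 4, where HBEGF is as large as AREG, reach 296 and 313.

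ADAM17, the sheddase (ENSG00000151694, chromosome 2, 9488486 to 9556732, minus strand), followed the course of EGFR. Its levels were 9.004, 10.3, 16.6 and 15.2 FPKM across Controls 1 to 4 and 8.55, 9.80, 9.76 and 9.01 FPKM across OGD-R 1 to 4. The groups overlapped, and OGD-R overlapped with Controls 1 and 2. On the log2 scale the difference was -0.38 ± 0.19 (SE; limma adjusted p = 0.184), -0.05 against Controls 1 and 2 (limma adjusted p = 0.633) and -0.72 against Controls 3 and 4 (limma adjusted p = 4.12e-05).

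Ranked by their means, the members in OGD-R ran EGFR, ERBB2, TGFA, AREG, ADAM17, ERBB3, EPGN, HBEGF, EREG and BTC. The ranges of TGFA, AREG, ADAM17 and ERBB3 overlapped from one to the next, as did those of EPGN and HBEGF, so these neighbours did not differ beyond their spread. In Control the order was EGFR, AREG, HBEGF, TGFA, ERBB2, ADAM17, EREG, ERBB3, EPGN and BTC. There the range of each of the first 4 overlapped with the next, as did EREG with ERBB3 and ERBB3 with EPGN. Within each Control library, however, EGFR was above AREG and EREG above ERBB3, the latter narrowly in Control 2 (4.12 and 4.10 FPKM). The other overlapping neighbours changed order between Control libraries. AREG was above ERBB2 in every Control library and below it in every OGD-R library. HBEGF was above ERBB2 in Controls 3 and 4 and below it in Controls 1 and 2 and in every OGD-R library.

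Genes with the pattern most like that of EGFR and AREG, the receptor and the ligand with the highest means, were taken by Pearson correlation of log2(FPKM + 1) over the 8 libraries. They share library and depth with them, so the correlations are a description. For EGFR these were AFF4, TARSL2 and SESN2 (r = 0.998, 0.998 and 0.997). SESN2, a stress-induced sestrin, measured 3.17, 4.72, 24.7 and 24.0 FPKM across Controls 1 to 4 and between 3.18 and 3.71 FPKM in OGD-R, the same split of the Controls as in EGFR but wider. For AREG they were NAMPT, an enzyme of NAD synthesis, IER3, an immediate early gene, and RAB3IL1 (r = 0.997 for each). IER3 measured 96.5, 98.8, 270 and 298 FPKM across Controls 1 to 4 and between 29.9 and 33.8 FPKM in OGD-R.

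Of the family outside the members, NRG4 was higher and NRG1 lower in OGD-R. Of 6 other ligands and receptors, 2 passed the filter. NRG1, neuregulin 1, a ligand of ERBB3, measured 28.7, 28.6, 16.3 and 17.0 FPKM across Controls 1 to 4 and 13.3, 10.3, 10.7 and 10.3 FPKM across OGD-R 1 to 4. Here Controls 1 and 2 were the higher ones, opposite to AREG, and the groups did not overlap. This gave a log2 difference of -0.92 ± 0.21 (SE; limma adjusted p = 0.0184), a call lost without OGD-R 2, 3 or 4 (limma adjusted p up to 0.0597). NRG4, a ligand of ERBB4, measured 1.31, 1.33, 0.431 and 0.708 FPKM across Controls 1 to 4 and between 3.29 and 4.14 FPKM in OGD-R. Its log2 fold change was 1.29 ± 0.17 (SE; limma adjusted p = 0.00196), but its Control mean was 0.946 FPKM, so it passed the filter only through the OGD-R libraries. ERBB4 itself did not exceed 0.106 FPKM in any library, EGF did not exceed 0.0362 FPKM, NRG3 was listed at 0 in all, and NRG2 ranged from 0 to 1.42 FPKM.

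Around the sheddase, 10 of 11 genes were tested and 3 were called, all lower, where 9.69% of all genes were called lower, with a median log2 fold change of -0.15 beside 0.02 over all genes tested. ADAM8, a metalloprotease, measured 24.1, 25.2, 22.5 and 20.8 FPKM across Controls 1 to 4 and between 5.63 and 6.86 FPKM in OGD-R, with Controls close together. Its log2 fold change was -1.73 ± 0.10 (SE; limma adjusted p = 4.90e-05). ADAM19 measured 7.79, 8.22, 25.3 and 24.2 FPKM across Controls 1 to 4 and between 1.16 and 1.67 FPKM in OGD-R, and its log2 fold change was -2.68. RHBDF2, which encodes iRhom2, a protein that carries ADAM17 to the cell surface, measured 15.3, 14.4, 23.2 and 21.9 FPKM across Controls 1 to 4. It was between 8.28 and 9.62 FPKM in OGD-R, below every Control, a log2 difference of -0.97 ± 0.16 (SE; limma adjusted p = 0.00519). RHBDF1, of the same list, overlapped between the groups. It measured 7.70, 7.83, 14.3 and 15.9 FPKM across Controls 1 to 4 and between 9.69 and 11.5 FPKM in OGD-R (log2 fold change -0.06, limma adjusted p = 0.8835). ADAM10, another sheddase of EGF family ligands, had a log2 fold change of 0.29 (limma adjusted p = 0.0700) and was called higher on both other scalings. With Controls 1 and 2 alone, 3 genes of this list were called higher and 5 lower, against 22.8% and 32.4% of all genes. With Controls 3 and 4 alone, 2 were called higher and 5 lower, against 39.2% and 28.4%. TIMP3 and RHBDF1 were called higher with the former pair and lower with the latter.

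Among the genes that carry the signal inward, most did not pass the test. Of 24 tested, 1 was called higher and 4 lower, where 10.2% of all genes tested were called higher and 9.69% lower, with a median log2 fold change of -0.06 beside 0.02 over all genes. PIK3R1, the regulatory subunit of phosphoinositide 3-kinase, was at 2.51 to 3.43 FPKM in Control and 4.56 to 5.41 FPKM in OGD-R (log2 fold change 0.56). MAP2K2, the kinase MEK2, was at 51.7 to 56.3 FPKM in Control and 34.5 to 40.4 FPKM in OGD-R, and its log2 fold change was -0.53. SHC1, an adaptor of activated receptors, had a log2 fold change of -0.70. The other decreases, NRAS and PTPN11, were small at -0.48 and -0.30, and both calls were lost on the scaling without mitochondrial genes, where the list counted 3 higher and 2 lower, against 1969 and 721 of all 11740 genes. NRAS also lost its call without Control 3 or 4 alone or any single OGD-R library (limma adjusted p up to 0.0885), and PTPN11 without Control 1, 2 or 3 alone or any single OGD-R library (limma adjusted p up to 0.114). With Controls 1 and 2 alone, 6 genes of this list were called higher and 9 lower, against 22.8% and 32.4% of all genes. With Controls 3 and 4 alone, 5 were called higher and 8 lower, against 39.2% and 28.4%.

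With all Controls, the genes listed for restraint or turnover of the receptor were called lower or not at all. Of 15 tested, 5 were called, all lower, where 9.69% of all genes tested were called lower, with a median log2 fold change of -0.25 beside 0.02 over all genes. On both other scalings 1 was left, STUB1, a ubiquitin ligase that acts on misfolded proteins, at 32.9 to 36.3 FPKM in Control and 24.5 to 28.1 FPKM in OGD-R. ERRFI1, the feedback inhibitor MIG6 that binds the kinase domain of EGFR, measured 23.9, 26.9, 56.2 and 57.5 FPKM across Controls 1 to 4 and between 17.6 and 19.4 FPKM in OGD-R. Its log2 fold change was -1.003 ± 0.29 (SE; limma adjusted p = 0.0451), a call lost without Control 3 or 4 alone or any single OGD-R library (limma adjusted p up to 0.114). The calls of HGS and CBLC were lost in the same way, with limma adjusted p up to 0.108 and 0.110. With Controls 1 and 2 alone, 3 genes of this list were called higher and 8 lower, against 22.8% and 32.4% of all genes. With Controls 3 and 4 alone, 1 was called higher and 9 lower, against 39.2% and 28.4%.

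Genes known to be switched on by ERK signalling were lower in OGD-R in most cases. Of 17 tested, 11 were called, all lower, the same counts on both other scalings, where 9.69% of all genes were called lower. Their median log2 fold change was -1.52, beside 0.02 over all genes. With Controls 1 and 2 alone 2 were called higher and 13 lower, against 22.8% and 32.4% of all genes (median -0.95, beside -0.05 over all genes). With Controls 3 and 4 alone all 17 were called lower, against 28.4% of all genes (median -1.89, beside 0.09 over all genes). Some of these genes were already known to differ in these data, so the list is no independent evidence. ETV5 and SPRY4, both among the lower calls, were under 1 FPKM in every OGD-R library and passed the filter only through the Controls, so they had to differ and their calls support nothing. The medians given include both genes. ETV5, a transcription factor, measured 5.66, 5.89, 3.48 and 2.99 FPKM across Controls 1 to 4 and between 0.436 and 0.733 FPKM in OGD-R (log2 fold change -1.77). DUSP4, a phosphatase that acts on ERK, measured 14.6, 15.3, 26.0 and 24.3 FPKM across Controls 1 to 4 and between 4.11 and 4.68 FPKM in OGD-R (log2 fold change -1.92). SPRED1, an inhibitor of RAS signalling, had a log2 fold change of -1.07, and FOSL1, an AP-1 subunit, of -2.84. The Controls split either way here, DUSP4 with more RNA in Controls 3 and 4 like AREG, and ETV5 with more in Controls 1 and 2 like NRG1. DUSP4 was lowest in OGD-R, and the low OGD-R values of ETV5 support nothing, given the filter. EGR1 overlapped between the groups, at 27.2, 27.5, 94.0 and 102 FPKM across Controls 1 to 4 and 26.1 to 29.6 FPKM in OGD-R. FOS, EPHA2 and CCND1 overlapped as well. FOS and CCND1 were the genes called higher with Controls 1 and 2 alone (log2 fold change 0.74 and 0.28). These genes were chosen after their values were seen.

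**Figure D4:**
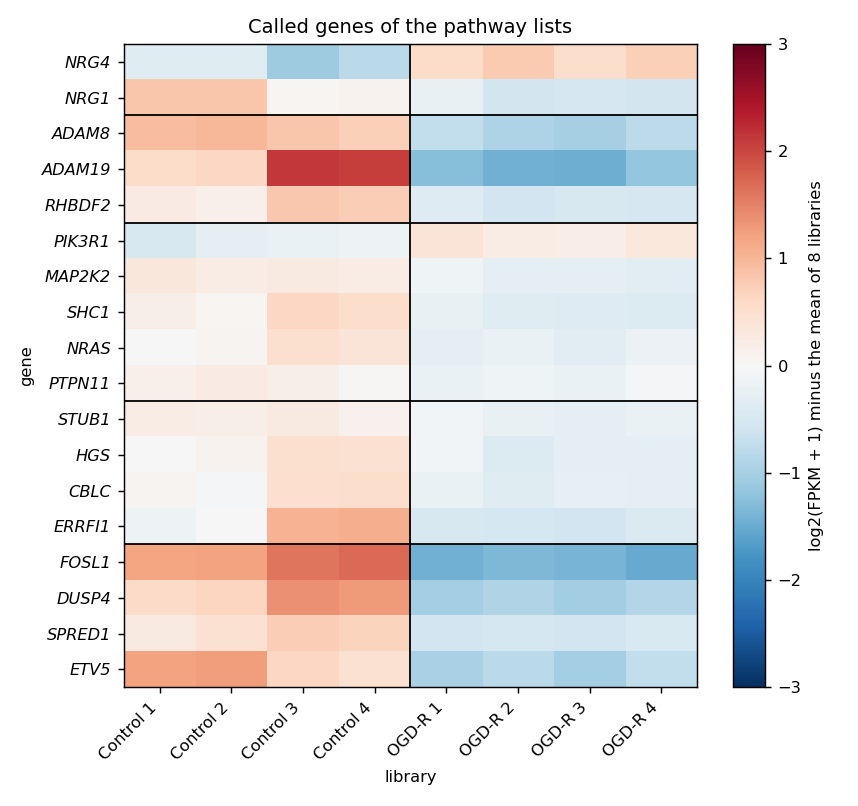
Log2(FPKM + 1) minus the mean of the 8 libraries (colour) for 18 called genes of the pathway lists (rows) in each library (columns). At most 4 called genes per direction and list are shown, by smallest p, with lines between lists in the order of the text. NRG4 and PIK3R1 are higher in the 4 OGD-R libraries and the other genes shown lower, and ADAM19 is highest in Controls 3 and 4.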

How the data were processed

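The series holds 8 RNA sequencing libraries from HaCaT cells, 4 Control and 4 OGD-R, grouped by their titles. The authors deposited 1 table of values per library, read here as FPKM; their aligner, counting tool, build and annotation are not stated there or in the labels. In 944 single-exon genes, between 76 and 102 low values per library could show a spacing that scales with 1 / length, and 21 to 34 of them lay within 0.5% of it, so the unit rests on few values. Counted over more multiples of the spacing, 18 to 33 values per library lay on even multiples and 8 to 17 on odd ones. For that reason 1 fragment was taken as 2 steps of the spacing. The values on odd multiples leave this choice uncertain, and the fragment counts given for EREG and BTC carry this factor of 2. On this choice, 1 fragment on a transcript of 2 kb is 0.0200 to 0.0296 FPKM.

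Gene positions were looked up by Ensembl ID in GENCODE 29 (GRCh38). For testing, log2(FPKM + 1) was fitted with limma 3.58.1 in R 4.3.3, with an intensity trend. The fit covered the 11740 genes whose mean reached 1 FPKM, Benjamini-Hochberg adjusted at 0.05. The procedure was also run on simulated data. Those data held no split of the Controls into pairs, so the run does not cover that feature of these libraries. Members, lists and alternatives, the pairs of Controls left out included, were chosen with earlier results of these data known. All members are named, with up to 4 called genes by smallest p per direction and list, and the 3 genes most like the top receptor and ligand. COL1A1, CD68, MITF, ADAM10, RHBDF1, EGR1, FOS, EPHA2 and CCND1 were named after their values were seen. Figures used matplotlib 3.10.9.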

Additional observations from a re-analysis of the deposited data

Results flagged for a closer look

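In OGD-R, 1 library stood apart from the other 3 in 2 genes, when the gap to the nearest library was set against the whole range of the group (Dixon's ratio). ERBB2 was at 44.1 FPKM in OGD-R 1 and between 33.98 and 34.31 FPKM in the others, a ratio of 0.967. NRG1 was at 13.3 FPKM in OGD-R 1 and between 10.3 and 10.7 FPKM in the others, a ratio of 0.868. Of 60 groups of 4 libraries looked at, these were the only ones past the critical value, where chance gives about 1 in 20. Both high values came from the same library.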

How the results depend on the processing

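Over 19 alternatives, the 9 tested members gave 169 values, of which 156 kept direction and side of the threshold. EPGN turned direction once, to -0.12 without Controls 3 and 4. Members called higher went from 2 to 1 with the replicate block and with libraries weighted by group, in both cases through the loss of ERBB2 (limma adjusted p = 0.0506 and 0.0992), and members called lower went from 3 to 6 without Controls 1 and 2. HBEGF, not called with all libraries, was called in 7 alternatives (limma adjusted p between 1.69e-08 and 0.124 over all of them), pseudocounts of 0.1 and 0.01 among them. The fits with a single pair of Controls are also among them, and these leave out the spread between the pairs. Among all genes, 1202 higher and 1138 lower became 1969 and 721 scaled without mitochondrial genes. They became 2673 and 3807 without Controls 3 and 4, and 4603 and 3337 without Controls 1 and 2. A minimum mean of 5 FPKM left 689 higher genes, with fewer genes tested. Leaving out 1 library gave 711 to 1426 higher and 561 to 1312 lower genes, and each single OGD-R library left out took both counts down by more than 1.5 times. The replicate block gave 625 and 507. Deviations of same-numbered libraries from their group means correlated between 0.0450 and 0.0646. Differently numbered libraries were not set beside them, so whether the numbers pair libraries remains unknown. Of 339 values of the 18 pathway genes named from the called ones, 55 lost the call and none turned direction. Except for the smaller filter sets, the cause was not tested. BTC rests on few fragments, about 6.96 at the lowest.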
